A study of Mus musculus with 8 samples.

Results

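The 5 mouse microRNAs (miRNAs) described here, mmu-miR-143, mmu-miR-145, mmu-miR-21, mmu-miR-204 and mmu-miR-335-5p, are best known for their links to adipogenesis, the formation of fat cells from precursors. They were found by their exact names among the 566 mouse miRNAs on the array. Of these 5, 4 were measured above background in brown adipose tissue, among 189 measured miRNAs in all, and miR-145 was not. Brown adipose tissue is the fat depot that burns fuel to make heat. The tissue came from male C57Bl6N mice aged 8 weeks, of which 3 (mice 1 to 3) had been exposed to cold at 8 °C for 24 h and 3 (mice 4 to 6) had been kept at room temperature (21 °C). Mouse 1 and mouse 4 were each measured on 2 arrays, which were averaged, so 8 arrays gave 3 mice a group. The RNA was that of whole tissue, in which fewer cells of a type and less RNA per cell cannot be told apart.

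A miRNA is a short RNA that guides the silencing machinery to messenger RNAs, mostly through its seed, a short stretch near its 5′ end. When precursor cells turn into adipocytes, they silence signals that hold differentiation back and switch on PPARγ and its partners, and miRNAs act on both sides of that switch. miR-143 was one of the miRNAs found early to favour differentiation, in human preadipocytes. miR-145 comes from the same precursor transcript as miR-143, is abundant in smooth muscle, and has been reported to restrain adipogenesis in porcine preadipocytes. miR-21 is widely expressed and has been reported to favour adipogenesis of human fat-derived stromal cells by lowering a TGF-β receptor. miR-204 steers mesenchymal progenitors towards fat and away from bone by targeting Runx2. miR-335 is encoded within Mest, an imprinted gene linked to the enlargement of fat cells, and its level follows lipid loading of mouse adipocytes.

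The mature sequences of miR-21, miR-204 and miR-335-5p show how little these members share, and that of miR-211 is shown because it has the seed of miR-204. They are RefSeq sequences of the assembly GRCm38.p6, written 5′ to 3′ with the seed (bases 2 to 8) in capitals. miR-21 lies at chr11:86584120-86584141 (minus strand) within the span of the protein-coding gene Vmp1, miR-204 at chr19:22750610-22750631 (plus strand) within Trpm3, miR-335-5p at chr6:30741314-30741336 (plus strand) within Mest, and miR-211 at chr7:64205831-64205852 (plus strand).
miR-21: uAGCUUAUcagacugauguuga
miR-204: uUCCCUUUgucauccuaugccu
miR-211: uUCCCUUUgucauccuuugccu
miR-335-5p: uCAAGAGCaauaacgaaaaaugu
The 3 members with a sequence had 3 distinct seeds, and no mature sequence was available here for miR-143 or miR-145. miR-204 and miR-211 were identical at 21 of 22 bases and differed by A17U, counted from 1 at the 5′ end of miR-204. miR-211 was not detected by the scanner software on any of the 8 arrays, and neither was any of the other 4 relatives on the array, which were miR-145*, miR-21*, miR-335-3p and miR-590-5p (a relative of miR-21 by seed). Of the 800 spots of these 5 relatives, 7 were well above background. The array had no probe named for the other arm of miR-143 or of miR-204 (miR-143* and miR-204*), so those arms were not measured. The values below therefore describe 1 arm of each hairpin.

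None of the 4 measured members passed the test between cold and room temperature, where 15.3% of the 189 measured miRNAs did (29 miRNAs with limma adjusted p under 0.05, of which 16, or 8.47%, were higher in the cold and 13, or 6.88%, lower). The levels below are log2 of a miRNA's signal over the 75th percentile of its array, so that 0 is that percentile and each step of 1 is a doubling. A change is the cold mean minus the room temperature mean on that scale, with its SE and Benjamini-Hochberg adjusted p from limma over the 189 miRNAs. The median change of all 189 was −0.02.

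miR-21 was by far the brightest member. Its levels were 1.37, 1.47 and 1.45 in the cold mice and 2.03, 1.61 and 1.55 in the room temperature mice. Every cold mouse was below every room temperature mouse, with mouse 4 the highest of all. Of the 189 miRNAs, 38.6% had groups that did not overlap, and 18.5% did so with the cold mice lower. The change was −0.30 ± 0.158 (SE, 3 mice a group), a room temperature level 1.23 times that in the cold, with a 95% confidence interval of the change from −0.67 to 0.07. It did not pass the test (limma adjusted p = 0.228), and its p ranked at position 77 of 189. Without mouse 4 the change was −0.15.

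Both probes of miR-21 moved the same way. The probe A_54_P1307 gave 3435 ± 670 signal units in the cold and 6078 ± 1498 at room temperature (SD, n = 3), before any scaling between arrays. The probe A_54_P1308 gave 1357 ± 301 and 2144 ± 524 units (SD, n = 3). The 75th percentile by which the arrays were scaled lay between 627 and 918 units in the cold mice and between 863 and 1408 units at room temperature. After scaling, the changes of the 2 probes were −0.37 and −0.23. The difference between the 2 arrays of one mouse, which is technical, was 0.17 for mouse 1 and 0.27 for mouse 4. These are differences between single arrays, whereas the change is one between means of 3 mice.

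miR-143 varied more between the cold mice than any other measured member, with an SD of 0.95 (n = 3). Its levels were −3.45, −1.91 and −1.72 in the cold and −2.06, −1.69 and −1.77 at room temperature. Mouse 1 stood far below the other 5 mice, while mice 2 and 3 lay within or near the room temperature range, so the groups overlapped. The change was −0.52 ± 0.420 (SE, 3 mice a group), with a 95% confidence interval from −1.50 to 0.45, and it did not pass the test (limma adjusted p = 0.423). Without mouse 1 the change was 0.02, so the lower cold mean rests on that mouse, from which outlier spots were removed (values with the probes below). The 2 arrays of mouse 1 gave −3.79 and −3.11, both under all other arrays, but their difference of 0.68 was also well above the median technical difference of 0.20 over all miRNAs for that mouse. For mouse 4 the 2 arrays of miR-143 differed by 0.09.

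The 2 probes of miR-143 did not give the same size of change. The probe A_54_P2404 gave 141 ± 90.0 units in the cold and 288 ± 83.9 at room temperature (SD, n = 3), a change after scaling of −0.87. The probe A_54_P2405 gave 249.7 ± 143 and 328 ± 112 units (SD, n = 3), a change after scaling of −0.18. The 2 arrays of mouse 1 lost 1 and 2 of 10 spots of A_54_P2404 as outliers, and 2 and 0 of A_54_P2405. Mice 2, 3, 5 and 6 lost 0, and mouse 4 lost 1 spot on 1 array. The highest A_54_P2404 spots of mouse 1 read 451 and 568 units, against means of 33.0 and 50.6 over the kept spots. The part of this removal in the level of mouse 1 was not tested. Both probes are for the same miRNA, and their spots were printed in different places, whose values follow further down.

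miR-204 was dimmer. Its levels were −3.42, −2.99 and −3.70 in the cold and −3.78, −3.11 and −3.46 at room temperature. The groups overlapped almost fully, with a spread of 0.36 and 0.33 (SD, n = 3) in cold and room temperature. The change was 0.08 ± 0.232 (SE, 3 mice a group; limma adjusted p = 0.832), with a 95% confidence interval that ran from −0.46 to 0.62. This interval still allows a change of up to 1.54-fold upwards or 1.37-fold downwards, so a difference of up to that size was not excluded with these mice.

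miR-335-5p was the dimmest measured member. Its levels were −4.55, −4.30 and −4.33 in the cold and −5.25, −4.30 and −4.46 at room temperature. Mouse 4 was the lowest, mouse 5 and mouse 2 were level with each other, and the groups overlapped. The change was 0.27 ± 0.247 (SE, 3 mice a group; limma adjusted p = 0.472), with a 95% confidence interval from −0.30 to 0.85. Without mouse 4 it was −0.02. The value came from the probe A_54_P2688 alone (38.3 ± 9.89 units in the cold, 44.6 ± 19.1 at room temperature; SD, n = 3), because the other probe was near background with 0.958 and 4.44 units.

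**Figure D1:**
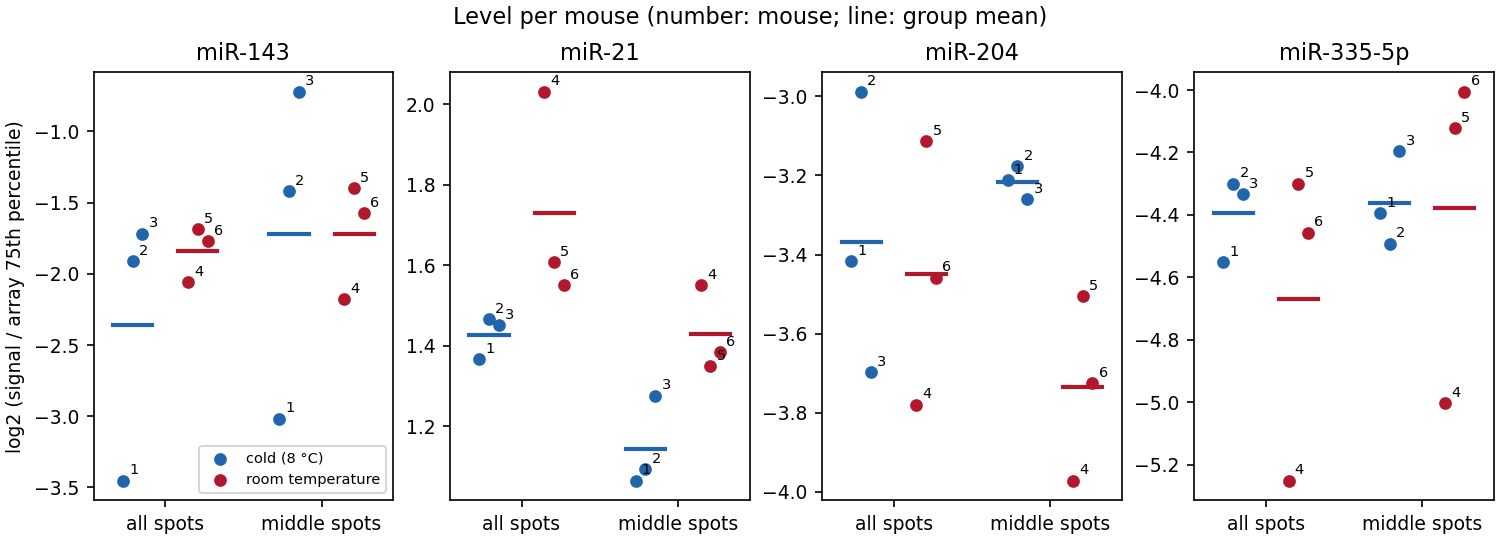
Level of each measured member per mouse (log2 of signal over the array's 75th percentile, vertical axis, different range per panel), in 3 cold mice (blue) and 3 room temperature mice (red), over all spots and over spots in the middle of the array, with lines at the group means and the mouse number beside each point. The miR-143 level of mouse 1 lies under all others (−3.45 over all spots), the groups of miR-21 do not overlap under either choice, and those of miR-204 separate only over the middle spots.

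Ranked by signal within each mouse, with rank 1 the brightest of the 189 miRNAs, the members kept separate places. Brightness on an array depends on the probe as well as on the number of molecules, so a rank places a miRNA among signals, not among amounts. miR-21 held ranks 13, 12 and 12 in the cold mice and 7, 11 and 10 at room temperature. Its mean rank was 12.3 ± 0.577 in the cold and 9.33 ± 2.08 at room temperature (SD, n = 3; 2-sided exact permutation p = 0.1, the lowest possible with 3 mice a group; Benjamini-Hochberg p = 0.4 over the 4 rank comparisons). miR-143 held ranks 89, 65 and 61 in the cold and 67, 64 and 65 at room temperature, so 5 of 6 mice placed it between 61 and 67 and mouse 1 did not (2-sided exact permutation p = 0.9).

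The 2 dimmer members followed. miR-204 held ranks 88, 83 and 94 in the cold and 97, 87 and 90 at room temperature (2-sided exact permutation p = 0.6). miR-335-5p held ranks 126, 119 and 116 in the cold and 149, 122 and 123 at room temperature (2-sided exact permutation p = 0.4). The order miR-21, miR-143, miR-204, miR-335-5p held in 5 of 6 mice. In mouse 1 miR-143 and miR-204 were next to each other at ranks 89 and 88, so these neighbours in the order did not differ there.

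miR-145, the cluster partner of miR-143, could not be given a level. The hairpins of both lie within the long noncoding RNA gene Carmn, which is why they were compared. Its probe A_54_P2315 gave 2.44 ± 2.43 units in the cold and 6.56 ± 4.83 at room temperature, and its probe A_54_P2314 gave 1.90 ± 1.96 and 2.05 ± 1.10 units (SD, n = 3). Of its spots, 3 of 80 were well above background in the cold and 10 of 80 at room temperature, and the software detected it on 2 of 8 arrays, those of mice 5 and 6. With values under 0.01 of the 75th percentile set to that floor, both probes were at the floor in every mouse except 1 probe in mouse 5. miR-143 was above its partner by 3.19, 4.74 and 4.93 log2 units in the cold and by 4.58, 4.86 and 4.87 at room temperature. These differences compare different probes and rest on the floor of miR-145, so they are not measured ratios of the 2 miRNAs. The cold and room temperature differences, 4.28 ± 0.951 and 4.77 ± 0.164 (SD, n = 3), could not be distinguished (2-sided exact permutation p = 0.7), and with miR-145 at the floor this amounts to the comparison of miR-143 alone. A change of miR-145 with cold was therefore not detectable on these arrays.

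The position of a spot on the array moved with the group. Each array had 192 rows and 82 columns of spots, and every probe was printed in several places. Among probes with a median above 100 units, each spot was set against the median of its own probe on the same array. In rows 1 to 16 the spots lay at −4.07 ± 0.296 log2 units on the cold arrays and at −0.58 ± 0.265 at room temperature (SD, n = 3 mice). In rows 177 to 192 it was the other way round, with −0.43 ± 0.465 in the cold and −3.75 ± 0.277 at room temperature (SD, n = 3). At both ends the mice of the 2 groups did not overlap (2-sided exact permutation p = 0.1 each, the lowest possible). All arrays lay on 1 slide, the cold ones in 1 row of the slide and the room temperature ones in the other, so slide row and temperature cannot be told apart. This comparison was made after the data had been seen.

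**Figure D2:**
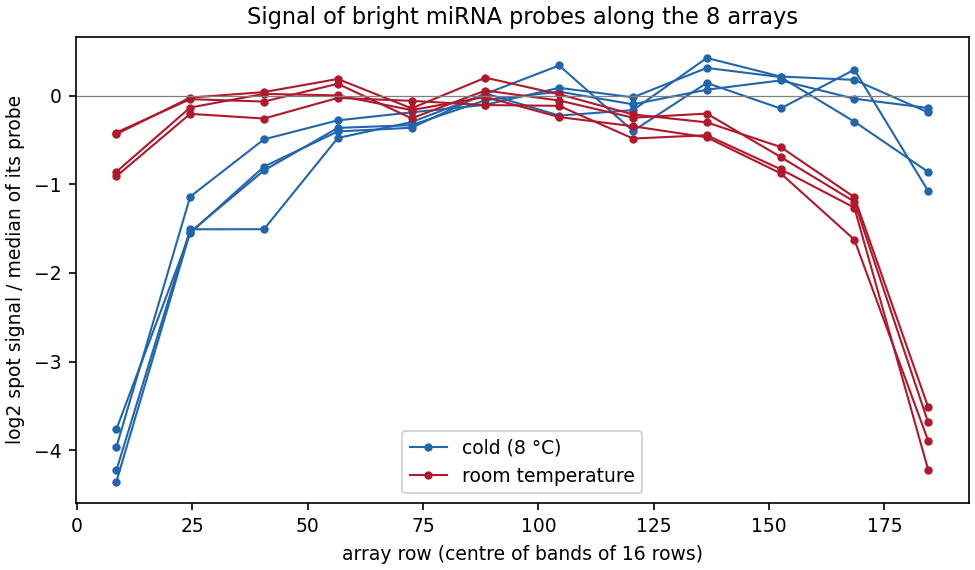
Signal of spots of bright miRNA probes relative to the median of their own probe (log2, vertical axis) in bands of 16 array rows (horizontal axis), 1 line per array for 4 cold arrays (blue) and 4 room temperature arrays (red). The cold arrays are dim at the low rows and the room temperature arrays at the high rows, by about 4 log2 units at the ends.

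The spots of miR-143 followed this pattern. Of the 20 spots of its 2 probes, 10 lay in rows 1 to 64, 5 in rows 65 to 128 and 5 in rows 129 to 192. Unlike the levels above, the values by rows here and for the other members kept outlier spots. In rows 1 to 64 its signal was 4.65%, 5.16% and 3.98% of the array's 75th percentile in the cold mice and 30.2%, 30.2% and 33.3% at room temperature. In the middle rows it was 36.9%, 44.8% and 68.9% in the cold and 35.1%, 53.3% and 42.7% at room temperature. In rows 129 to 192 it was 25.8%, 56.8% and 48.3% in the cold and 3.90%, 10.9% and 8.54% at room temperature. The same miRNA on the same arrays thus read 0.147 times, 1.15 times and 5.61 times the room temperature mean from one end of the array to the other, with groups that overlapped only in the middle. The probe with the larger drop, A_54_P2404, had 6 of its 10 spots in rows 1 to 64 and a mean row of 61.2, and A_54_P2405 had 4 there and a mean row of 91.8.

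miR-21 showed the same turn, with a difference in the middle as well. In rows 1 to 64 (5 spots) it gave 198 ± 39.9% of the 75th percentile in the cold and 487 ± 109% at room temperature (SD, n = 3). In rows 129 to 192 (6 spots) it gave 413 ± 19.2% and 237 ± 51.2%, so cold was the higher group there. In rows 65 to 128 (9 spots) the values were 273%, 286% and 276% in the cold and 502%, 358% and 332% at room temperature. The cold mice were lower in the middle rows without overlap, by a ratio of 0.701 (2-sided exact permutation p = 0.1, the lowest possible). These 9 spots lay in rows 69 to 100 only. In rows 65 to 80 bright probes lay at −0.36 to −0.19 log2 units on cold arrays and −0.26 to −0.06 at room temperature. In rows 81 to 96 they lay at −0.10 to 0.02 and −0.11 to 0.20, and in rows 97 to 112 at −0.23 to 0.34 and −0.24 to 0.01. The part of spot position in the miR-21 values was not tested.

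The spots of miR-204 and miR-335-5p were fewer. For miR-204, the 2 spots in rows 1 to 64 gave 0.764 ± 0.425% in the cold and 8.45 ± 6.38% at room temperature, the 4 in the middle rows 11.0 ± 1.04% and 9.73 ± 1.20%, and the 4 in rows 129 to 192 11.5 ± 2.13% and 8.12 ± 1.66% (SD, n = 3). For miR-335-5p no spot lay in rows 1 to 64. Its 5 spots in the middle rows gave 4.73 ± 0.299% in the cold and 6.48 ± 1.75% at room temperature, and its 5 spots in rows 129 to 192 gave 4.82 ± 0.999% and 1.70 ± 0.825% (SD, n = 3). The cold levels of miR-335-5p in the 2 stretches overlapped, whereas every room temperature mouse was lower in the high rows than any was in the middle rows.

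**Figure D3:**
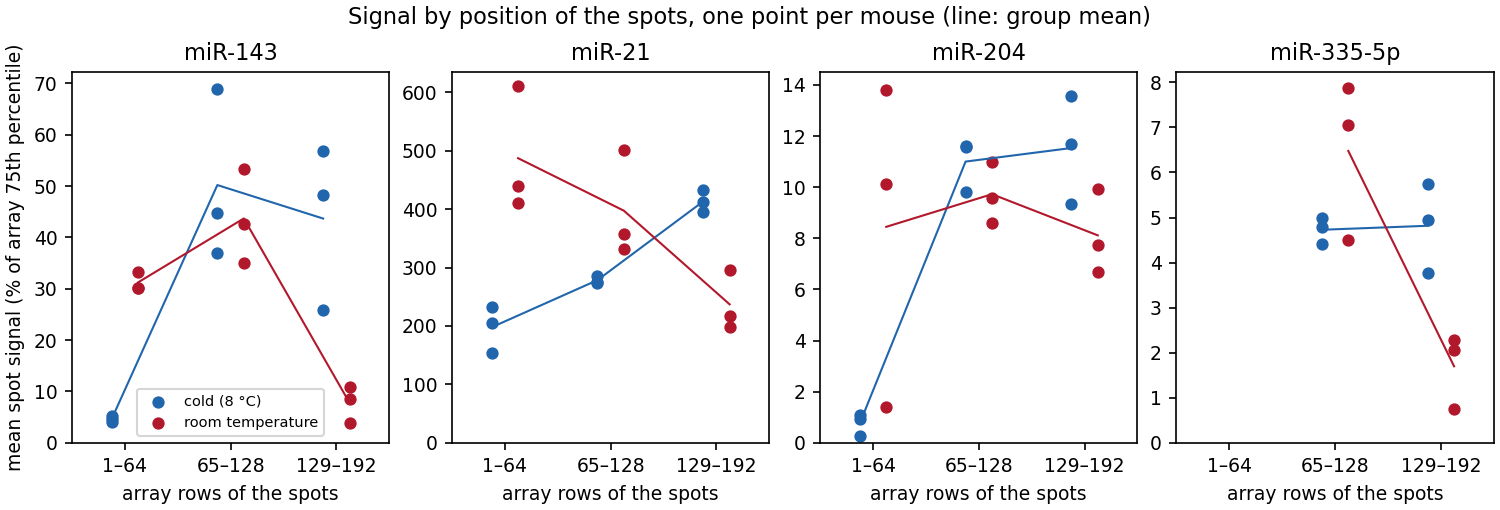
Mean spot signal of each member (percent of the array's 75th percentile, vertical axis) for spots in rows 1 to 64, 65 to 128 and 129 to 192, 1 point per mouse, cold in blue and room temperature in red, with lines through the group means. For miR-143 the cold mice are the lower group in the low rows (3.98% to 5.16% against 30.2% to 33.3%) and the higher group in the high rows, and no spot of miR-335-5p lies in rows 1 to 64.

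The members' changes were therefore recomputed from spots in rows 49 to 144 and columns 11 to 70, where the arrays of both groups were closer to level. Opposite slopes remained in this range. Bright probes in rows 49 to 64 lay at −0.48 to −0.28 on cold arrays and −0.03 to 0.19 at room temperature. In rows 129 to 144 they lay at 0.07 to 0.42 and −0.47 to −0.20. The spots of miR-143 in the range lay in rows 84 to 143, and those of miR-21 in rows 61 to 100 and row 137. Those of miR-335-5p lay in rows 85 to 137. The part of position left in the recomputed changes was not tested. Outlier spots were left out again in them, so these levels and the values by rows rest on different spots. miR-143 then had levels of −3.02, −1.42 and −0.72 in the cold and −2.18, −1.40 and −1.58 at room temperature. Mouse 1 remained the lowest and mouse 3 became the highest, and the change was −0.00065 ± 0.548 (6 spots; SE; limma adjusted p = 0.999). In the wider range of rows 17 to 176 it was −0.53, and −0.13 with all spots corrected for their position, so its size depends on how position is handled. miR-21 had levels of 1.06, 1.09 and 1.28 in the cold and 1.55, 1.35 and 1.38 at room temperature, still without overlap, with a change of −0.28 that did not pass the test (11 spots; limma adjusted p = 0.190). Its change was −0.20 in rows 17 to 176 (limma adjusted p = 0.426) and −0.45 with all spots corrected for position (limma adjusted p = 0.146).

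miR-204 was the member that moved towards a difference. Over its 4 middle spots its levels were −3.21, −3.18 and −3.26 in the cold and −3.97, −3.50 and −3.73 at room temperature, so that every cold mouse was above every room temperature mouse. These 4 spots all lay in rows 121 to 138, towards the high end of the range. Bright probes in rows 113 to 128 lay at −0.40 to −0.02 on cold arrays and −0.49 to −0.21 at room temperature. In rows 129 to 144 every cold array was above every room temperature array (0.07 to 0.42 against −0.47 to −0.20). The part of spot position in the miR-204 values was not tested. The change was 0.52 ± 0.151 (SE, 3 mice a group; limma adjusted p = 0.0651), which missed the threshold, and it was −0.13 when all spots were kept and corrected for their position instead. miR-335-5p gave −4.40, −4.49 and −4.20 in the cold and −5.00, −4.12 and −4.01 at room temperature, overlapping, with a change of 0.02 (5 spots; limma adjusted p = 0.972).

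The place of a miRNA's spots also moved with its change across the array as a whole. Over the 189 miRNAs, the mean row of the spots and the change had a Spearman rho of 0.506 and a Pearson r of 0.403, given as a description since all points share the same 8 arrays. With the mean row still taken over all spots, the rho was 0.058 for changes over the middle spots (187 miRNAs). It was 0.278 for changes over the wider range of rows 17 to 176 (188 miRNAs). After correction for position, which by construction takes out such a relation, it was −0.050. These values do not measure a relation with row among the middle or wider spots themselves. The 63 miRNAs with the lowest mean rows had a median change of −0.22, and 2 of them rose and 8 fell by the limma test, while the 63 with the highest mean rows had a median change of 0.18, and 10 rose and 1 fell. miR-143 had a mean row of 76.5 and miR-335-5p one of 127.1, on opposite sides of the median of 94.75, and their changes had opposite signs. miR-21 and miR-204 were near the median, at 96.6 and 95.7. How much of each member's change came from position was not tested beyond these recomputed values.

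**Figure D4:**
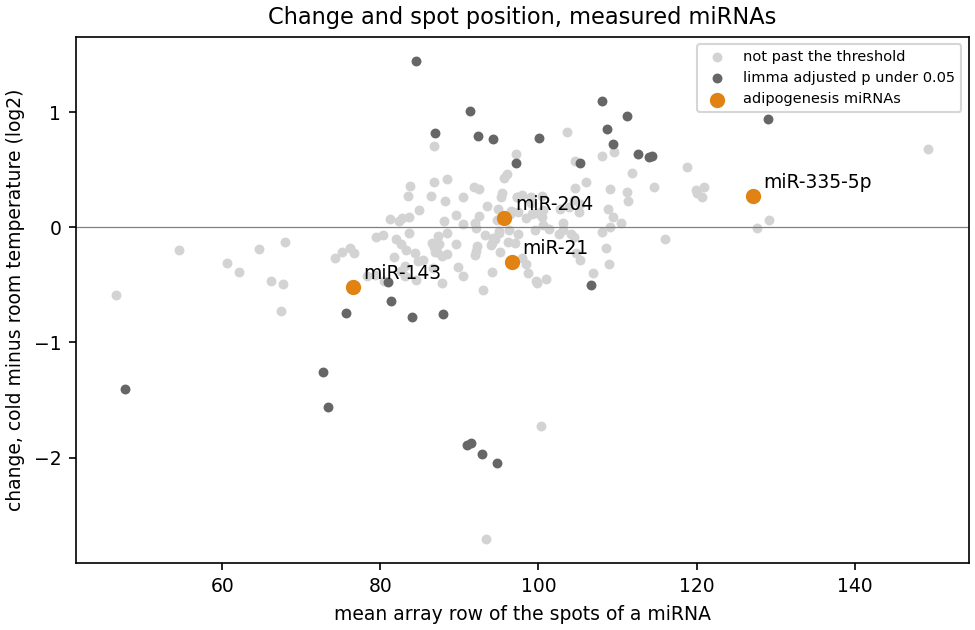
Change of each of 189 miRNAs between cold and room temperature (log2, vertical axis) against the mean array row of its spots (horizontal axis), with miRNAs past limma adjusted p of 0.05 in dark grey and the 4 measured members in orange. miR-143 lies at low rows with a negative change (−0.52 at row 76.5) and miR-335-5p at high rows with a positive one (0.27 at row 127.1).

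Across the other ways of processing the arrays, miR-21 was lower in the cold in all 23 alternatives, between −0.74 and −0.15, and passed the test in none of them (limma adjusted p from 0.146 to 0.457). miR-143 passed in 1 of 23, when the median over spots replaced their mean (−1.18, limma adjusted p = 0.0378; over all 23 alternatives from 0.0378 to 0.999). miR-204 and miR-335-5p passed in none, and their direction turned under some.

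**Figure D5:**
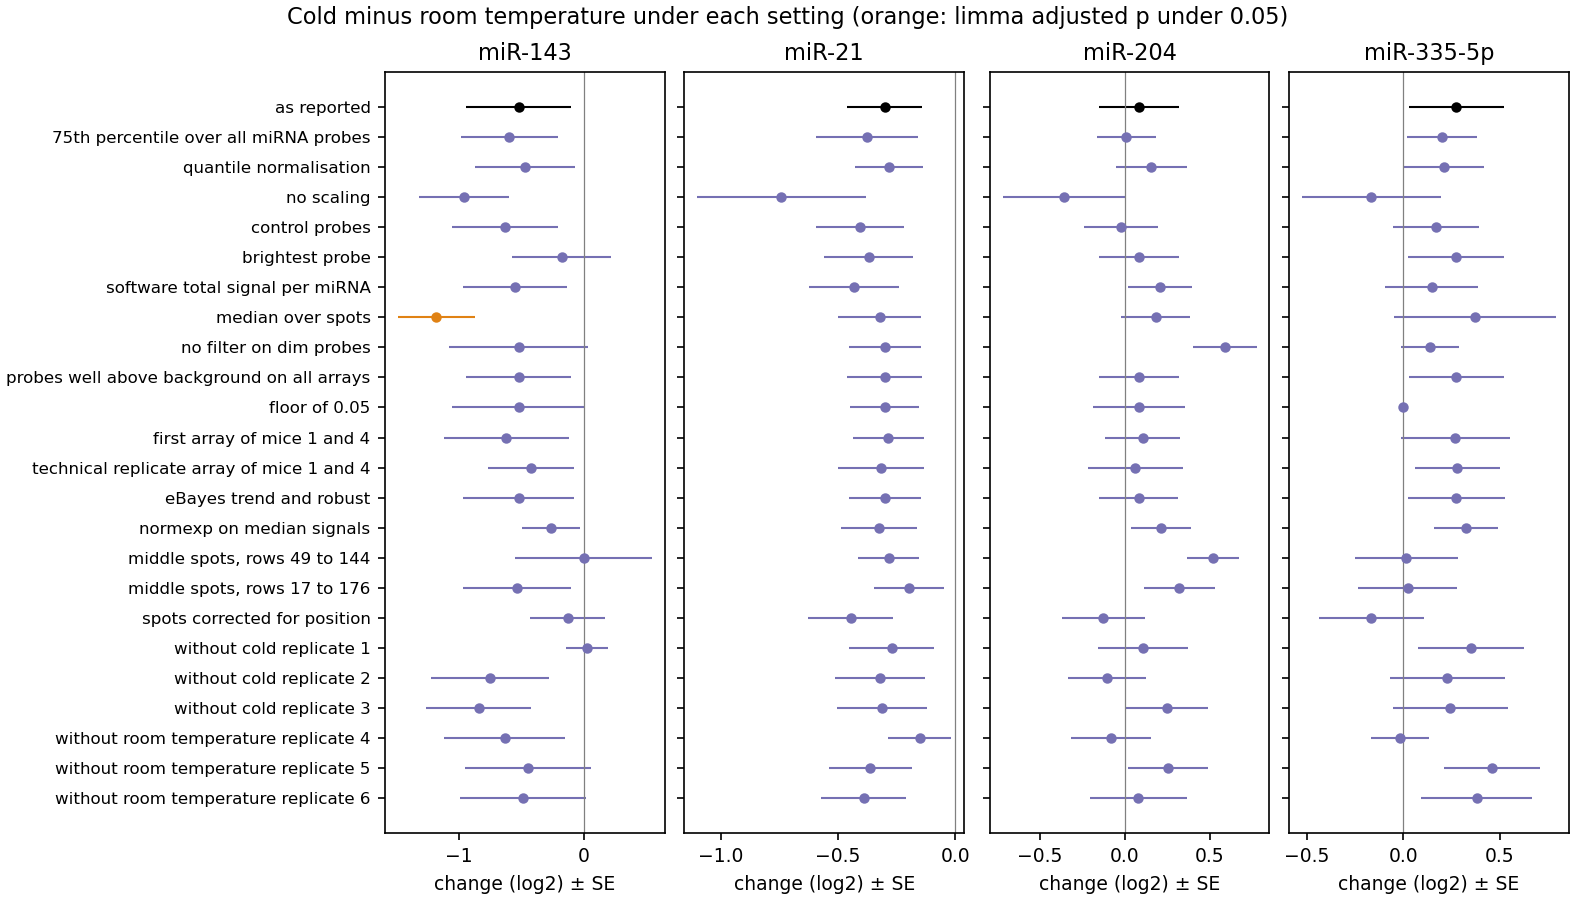
Change between cold and room temperature (log2, horizontal axis, different range per panel) with its SE for each measured member under the reported processing (black) and 23 alternatives. Points past limma adjusted p of 0.05 are orange, which is only the miR-143 value for the median over spots (−1.18), and all miR-21 values lie below 0.

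The miRNAs whose levels over the 6 mice were most like each member's were found by the root mean square difference of log2 levels after centring on each miRNA's mean. For miR-143 they were miR-142-3p, a miRNA of blood cells, at 0.207, miR-126-5p, of endothelium, at 0.340 and miR-30b at 0.345, against a median of 0.635 to all miRNAs. The pattern of miR-143 was mainly the low level of mouse 1 (−3.45, against −2.06 to −1.69 in the other mice), so this likeness rests largely on 1 mouse. A link to cell types was not tested. For miR-21 they were miR-342-3p at 0.0926, miR-148a at 0.113 and miR-29a at 0.114 (median 0.339). For miR-204 they were miR-410 at 0.138, miR-221 at 0.142 and miR-17* at 0.154 (median 0.321). For miR-335-5p they were miR-136 at 0.112, miR-378* at 0.145 and miR-379 at 0.147 (median 0.352). Over the middle spots, all 3 nearest of miR-143 were again its nearest, against 1 of 3 for miR-335-5p and 0 of 3 for miR-21 and for miR-204.

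The other miRNAs known to act on adipogenesis were read from one list of miRNAs reported to promote it and one of miRNAs reported to restrain it. Of 18 measured promoting miRNAs (20 listed), 3 rose in the cold, 0 fell and 15 did not pass, with 11 changes above 0 and a median of 0.18. miR-193b, required for brown fat differentiation in cultured mouse precursors, rose by 0.64 ± 0.117 (limma adjusted p = 0.0129). miR-378, encoded within the PGC-1β gene, rose by 0.97 ± 0.215 (limma adjusted p = 0.0219), and miR-30d, of a family that favours adipogenesis of human cells, by 0.56 ± 0.123 (limma adjusted p = 0.0205; SE, 3 mice a group for each). The mean rows of their spots were 112.55 for miR-193b, 111.25 for miR-378 and 105.2 for miR-30d, above the median of 94.75 over all miRNAs. Over the middle spots miR-193b still passed (0.49, limma adjusted p = 0.0358), whereas miR-378 (0.32, adjusted p = 0.192) and miR-30d (0.31, adjusted p = 0.190) did not. None of the 3 passed after correction for position, with limma adjusted p of 0.132, 0.0527 and 0.0838 for miR-193b, miR-378 and miR-30d. Over all 23 alternatives, miR-193b passed in 17, miR-378 in 12 and miR-30d in 11, and all 3 stayed above 0. Without 1 mouse, miR-193b missed the threshold when mouse 2 or 6 was left out (limma adjusted p = 0.0552 and 0.0590), miR-378 for mouse 2, 3, 4 or 5 (0.0519 to 0.0933) and miR-30d for any of mice 2 to 6 (0.0513 to 0.0933).

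Of 16 measured restraining miRNAs (25 listed), 1 rose in the cold, 0 fell and 15 did not pass, with 12 changes above 0 and a median of 0.11. The one that passed was miR-93, at 0.62 ± 0.142 (SE, 3 mice a group; limma adjusted p = 0.0222), and over the middle spots its change was −0.11 (adjusted p = 0.723). It passed in 9 of 23 alternatives, and missed the threshold without mouse 2, 3, 5 or 6 (limma adjusted p from 0.0624 to 0.0933). The mean row of the miR-93 spots was 114.3. The next smallest p-values belonged to miR-27a, which targets PPARγ, at −0.46 (limma adjusted p = 0.116), and to let-7c, at 0.39 (limma adjusted p = 0.144). In both lists the share of calls (3 of 18 and 1 of 16) stood beside 15.3% over all miRNAs.

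Lists of miRNAs that mark other cell types are given as sums of each list's signals over the array's 75th percentile, beside 6.88% of all miRNAs that fell and 8.47% that rose. Of 7 stromal miRNAs, 3 fell (miR-214, miR-199b* and miR-199a-3p), and the sum was 1.73 to 1.82 in the cold mice and 2.19 to 2.32 at room temperature. Another, miR-199a-5p, had a change of 0.68 that did not pass (limma adjusted p = 0.169), with groups that did not overlap. The mean rows of their spots were 84.05 for miR-199a-3p, 87.95 for miR-214, 106.6 for miR-199b* and 149.3 for miR-199a-5p. Of 5 measured striated muscle miRNAs (7 listed), 4 fell, and the sum was 1.50 to 6.51 in the cold and 7.64 to 11.2 at room temperature. All 7 leukocyte miRNAs had negative changes and 0 passed the test, with sums of 0.684 to 1.11 and 1.17 to 1.23. The 2 endothelial miRNAs did not pass either (8.98 to 12.0 and 11.2 to 12.9), nor did the 3 erythroid ones (17.4 to 27.9 and 12.3 to 15.1). Of 6 miRNAs known from brown adipocytes, 2 rose, miR-193b and miR-378, which also stand in the promoting list above. The sum of the 6 was 8.71 to 12.0 in the cold and 7.02 to 8.46 at room temperature, so their signal was present in both groups. The liver marker, which did not pass, was at the floor of 0.01 in all cold mice and between 0.0110 and 0.300 at room temperature. miR-21 and miR-143 are expressed in stromal, smooth muscle and blood cells as well as in adipocytes, and the part of these other cells in their values was not tested.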

How the data were processed

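miRNAs were measured on 8 Agilent 1-colour arrays (Cy3) of 6 mice. The deposited files give spot intensity in signal units, background-subtracted by the authors' scanner software (Agilent Feature Extraction 10.7.3.1 per the file headers, 9.5.3.1 per the submitters' processing notes). The authors' deposited value table held the same intensities (largest difference 0) with column medians of 1.12 to 1.55 units. Each array held 12493 spots, with 1712 miRNA probes for 566 mouse miRNAs. No spot was saturated, and the software detected 205 to 249 miRNAs per array. The number of arrays limits the precision.

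Control and outlier spots were removed, and the remaining spots of each probe were averaged. Outlier spots were kept only where signals were compared by array row. Signals were scaled by the array's 75th percentile, taken over 267 probes that were well above background throughout, floored at 0.01 and put on a log2 scale. The filter on dim probes required more than 0.5 of the spots to be well above background on all arrays of 1 group or the other (329 probes), and the kept probes of a miRNA were averaged. Arrays of a mouse were averaged. Changes were tested with limma 3.58.1 in R 4.3.3 over all 189 measured miRNAs, p-values being adjusted by Benjamini-Hochberg and called under 0.05, after a check on simulated data. Ranks and spot positions were compared by exact permutation over mice.

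The members and lists were chosen with earlier results of these data known. Named miRNAs were the members, their other arms and seed relatives, the 3 miRNAs nearest to each member, and in the 2 adipogenesis lists those past the threshold or with the 3 smallest p-values. Sequences and hairpin hosts are from RefSeq (GRCm38.p6), matched by name, and the array files name no build.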

Additional observations from a re-analysis of the deposited data

Results flagged for a closer look

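A second probe of miR-204, A_54_P2397, lies outside the tested values because in neither group were more than 0.5 of its spots well above background on every array (over all arrays 21 of 40 spots were in the cold and 20 of 40 at room temperature). It was higher in every cold mouse than in any room temperature mouse, with 18.9 ± 5.39 and 10.1 ± 3.21 units (SD, n = 3; 2-sided exact permutation p = 0.1, the lowest possible with 3 mice a group). The scaled change was 1.09, with 2 mice at the floor, against 0.08 for the tested probe A_54_P2396. Of its 10 spots, 6 lay in rows 129 to 192, where the room temperature arrays were dim, and 3 in rows 1 to 64, with a mean row of 110.8 against 95.7 for A_54_P2396. The part of spot position in its difference was not tested.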

How the results depend on the processing

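The alternatives were another scaling (the percentile over all probes, quantile, none, control probes), another summary (brightest probe, the software's total signal, median over spots), another filter or floor, 1 array for mice 1 and 4, a trended and robust fit, leaving out each mouse, and 4 chosen after seeing the data: normexp on median signals (offset 50), middle spots (rows 49 to 144 or 17 to 176) and spots corrected for position. The 29 calls became 15 without scaling, 5 without a filter on dim probes, 16 with probes well above background on all arrays, 5 with a floor of 0.05 and 6 with normexp. Leaving out 1 mouse gave 8 to 33 calls (11 without mouse 2, 14 without mouse 3, 13 without mouse 5, 8 without mouse 6). Scaling moved the split of 16 higher and 13 lower to 11 and 17 with all probes, 22 and 21 with quantile normalisation, 8 and 17 with control probes, and 1 and 14 without scaling, where the 189 miRNAs had a median change of −0.46 (−0.13 with control probes). Of the calls over middle spots (23), rows 17 to 176 (35) and corrected spots (24), 14, 21 and 16 were among the 29.

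The change of miR-143 passed only with the median over spots (−1.18), and ranged from −0.84 to 0.025 without 1 mouse. miR-204 turned to −0.36 without scaling, −0.024 with control probes and −0.13 with corrected spots (−0.11 to 0.25 without 1 mouse). miR-335-5p turned to −0.17 both without scaling and with corrected spots (−0.017 to 0.46 without 1 mouse), and miR-21 ranged from −0.39 to −0.15 without 1 mouse. Rank differences, cold minus room temperature, turned to 4.67 for miR-204 (corrected spots, against −3) and, for miR-335-5p (against −11), to 1 with a floor of 0.05, 3.33 and 1.33 with middle spots in rows 49 to 144 and 17 to 176, and 8.33 with corrected spots. Without 1 mouse they ranged from −2.33 to 11.7 for miR-143, −5.83 to −0.17 for miR-204, 1.83 to 3.83 for miR-21 and −15.7 to −2.17 for miR-335-5p. The difference between miR-143 and miR-145 turned from −0.49 to 0.11 over middle spots (−0.81 to 0.058 without 1 mouse). miR-93 turned to −0.11 over middle spots and −0.0087 with corrected spots, and let-7c to −0.048 without scaling. miR-27a passed with the software's total signal (−0.49) and the median over spots (−0.90). The cause was not tested.

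No paired analysis was possible because mouse numbers are not shared between the groups. Normexp on mean signals was not run because the files used here hold median signals, and the value table gave no separate run because it was identical. The signal over background limits miR-145, and 3 mice per group on 1 slide, with slide row and temperature joined, limit the rest.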
